A study of Homo sapiens with 9 samples.

Results

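The nuclear genes that encode subunits of the oxidative phosphorylation complexes were examined in U87 cells after transfection with miR-376a*. Genes were chosen by symbol: NDUFA, NDUFB, NDUFC, NDUFS or NDUFV with a number, COX4 to COX8, UQCR, ATP5, SDHA, SDHB, SDHC and SDHD, with the NDUFAF assembly genes left out. Only probe sets annotated with exactly 1 symbol counted, and the probe set with the highest mean over the 9 arrays stood for the gene. The rule found 81 of the 19775 symbols on the array, carried by 156 probe sets. Of these, 76 are protein-coding genes: 32 of complex I, 3 of complex II, 6 of complex III, 17 of complex IV and 18 of complex V. The other 5 are a pair of processed pseudogenes (ATP5MC2P1 and COX6A1P1) and the non-coding transcripts NDUFB2-AS1, NDUFV1-DT and NDUFV2-AS1. A low-signal filter, a mean log2(signal + 16) of at least 4.771 or a signal of about 11.3, kept 73 of the 76 coding genes. The 3 genes below it were COX7A1, COX7B2 and COX8C.

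Expression was measured on 9 Affymetrix human arrays, 1 for each RNA sample of U87, an established human glioma line. All cells, controls included, received a miRNA duplex at 50 nM with the lipid reagent Lipofectamine RNAiMAX (100000 cells per transfection) and were harvested 24 h later. The control group received a control miRNA, and the other groups received either miR-376a*A or miR-376a*G, with 3 biological replicates each. The names follow A-to-I RNA editing: miR-376a*A has the genomic base, and miR-376a*G has the G that stands for an edited base in published work. Because all groups were transfected, no value here describes untransfected cells. The series compared each form with the control, and the direct comparison of the forms was added here.

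Oxidative phosphorylation makes most of the ATP of a resting cell in the inner mitochondrial membrane. Complex I (NADH dehydrogenase) and complex II (succinate dehydrogenase) pass electrons to ubiquinone, complex III passes them on to cytochrome c, and complex IV (cytochrome c oxidase) passes them to oxygen. Complexes I, III and IV pump protons, and complex V (ATP synthase) lets them flow back to make ATP. Complex II also catalyses a step of the tricarboxylic acid cycle, and loss of its subunits is a known cause of paraganglioma. Gliomas are known for high aerobic glycolysis, with respiration kept to a degree that varies between tumours and lines.

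The mature miRNA named hsa-miR-376a-5p in RefSeq is the present name of miR-376a*, and it is shown because its seed (bases 2 to 8, in capitals) is the part that pairs with target transcripts. RefSeq places it at chr14:101040788-101040809 on the plus strand of GRCh38.p14. The labels do not say which base differs between the transfected forms, so only the RefSeq sequence is given.
hsa-miR-376a-5p: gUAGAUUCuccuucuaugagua

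The start regions of the genes were read for 3 motifs known from respiratory gene promoters, on both strands of RefSeq promoter windows (GRCh38.p14, 250 bases before to 50 after each start, 300 in all). A window was matched for 65 of the 76 coding genes. The NRF1 motif, searched as GCGCA and GCGC with 1 base between them, was in 16 of the 65 windows (24.6%), against 8.57% of the 15842 windows of coding genes. The ETS motif CCGGAAG, the kind of site bound by GABP, was in 18 (27.7%, against 14.2%), and the YY1 core ATGGCGG was in 17 (26.2%, against 7.63%). At least 1 of the 3 was in 39 windows (60%, against 26.0%). The windows of SDHD, the member that changed most, and of NDUFA9, the gene called higher with both forms, are printed with the motifs in capitals. In these windows the motifs do not overlap, and a match describes the letters, not a bound site. The YY1 core also begins with ATG, the letters of a start codon. Whether matches lie in coding sequence was not examined, so the YY1 shares do not tell promoter sites from start codons. The SDHD window is chr11:112086623-112086922 on the plus strand. It holds the NRF1 motif 110 bases before the start, where it reads the same on both strands, the ETS motif 77 bases before the start on the minus strand, and the YY1 core 156 bases before on the minus strand and 35 after on the plus strand. The NDUFA9 window is chr12:4648864-4649163 on the plus strand, with the NRF1 motif 80 bases before the start on the minus strand and the YY1 core 13 bases after it.
SDHD: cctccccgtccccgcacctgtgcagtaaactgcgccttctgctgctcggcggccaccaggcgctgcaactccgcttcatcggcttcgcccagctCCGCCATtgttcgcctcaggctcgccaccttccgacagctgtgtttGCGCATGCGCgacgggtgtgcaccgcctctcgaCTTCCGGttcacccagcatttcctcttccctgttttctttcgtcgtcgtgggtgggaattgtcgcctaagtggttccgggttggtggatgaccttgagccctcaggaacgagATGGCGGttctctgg
NDUFA9: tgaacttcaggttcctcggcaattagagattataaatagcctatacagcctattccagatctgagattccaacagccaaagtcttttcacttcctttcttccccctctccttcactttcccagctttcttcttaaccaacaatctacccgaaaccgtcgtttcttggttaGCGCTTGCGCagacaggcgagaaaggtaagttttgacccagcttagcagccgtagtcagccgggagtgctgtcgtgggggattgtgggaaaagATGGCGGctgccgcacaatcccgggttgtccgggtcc

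The arrays shared one scale, with 2% trimmed mean signals of 99.52 to 99.56 and medians of 17.9 to 20.3. A shift of all transcripts together therefore could not be seen. Of 20068 features tested, 20.8% were called with miR-376a*A against control, 24.9% with miR-376a*G against control and 18.3% between the forms. Of 11 glioma and astrocyte markers, VIM (2010 to 2610), FN1 (1760 to 2500), CD44 (1820 to 2200), TNC (1490 to 1780) and EGFR (448 to 626) were bright. CHI3L1 (98.0 to 152) and NES (63.9 to 105) were dim, OLIG2 and SOX2 (14.4 to 26.1) were just past the filter, and GFAP (0.734 to 2.43) and S100B were below it. Of 11 markers of other cell types, PTPRC, KRT20, CDH1 and CDH5 (0.664 to 11.7) were below the filter. CD3E (4.6 to 22.3), EPCAM (12.0 to 20.5), RBFOX3 (2.7 to 18.6), HBB (38.2 to 53.8), PECAM1 (41.3 to 87.3) and SYT1 (49.2 to 139) were past it but dim, and the neuronal tubulin TUBB3 was bright (1660 to 1940). Differences are given on the log2(signal + 16) scale, which understates those of dim genes, with a standard error (SE) from limma. A gene was called when its Benjamini-Hochberg adjusted p over all features was under 0.05. Signals are probe-set intensities, and differences were computed between groups, never between genes. Bright, dim and brightest rank signals only, not amounts of transcript.

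Control replicate 1 stood apart for these genes. Counts, medians and called genes against the control are therefore also given without it, while uncalled genes are given over all arrays. The median deviation of the 73 coding genes from their 9-array means was -0.32 on that array and -0.03 to 0.08 on the other 8. It was -0.35 for complex I, -0.29 for complex III, -0.28 for complex IV and -0.26 for complex V, but -0.01 for complex II. The complex II median is over only 3 genes and does not show that all of them were spared. SDHC had its lowest signal of the 9 arrays on control replicate 1 (600.2). The 9-array mean of SDHD is lowered by the miR-376a*G arrays. For 60 of the 73 genes this array had the lowest of the 9 values. The 1211 other features with a mean signal of at least 1000, the range of 51 of the 73 genes, had a median deviation of -0.12 on it. The labels give no batch or date for the arrays.

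**Figure D1:**
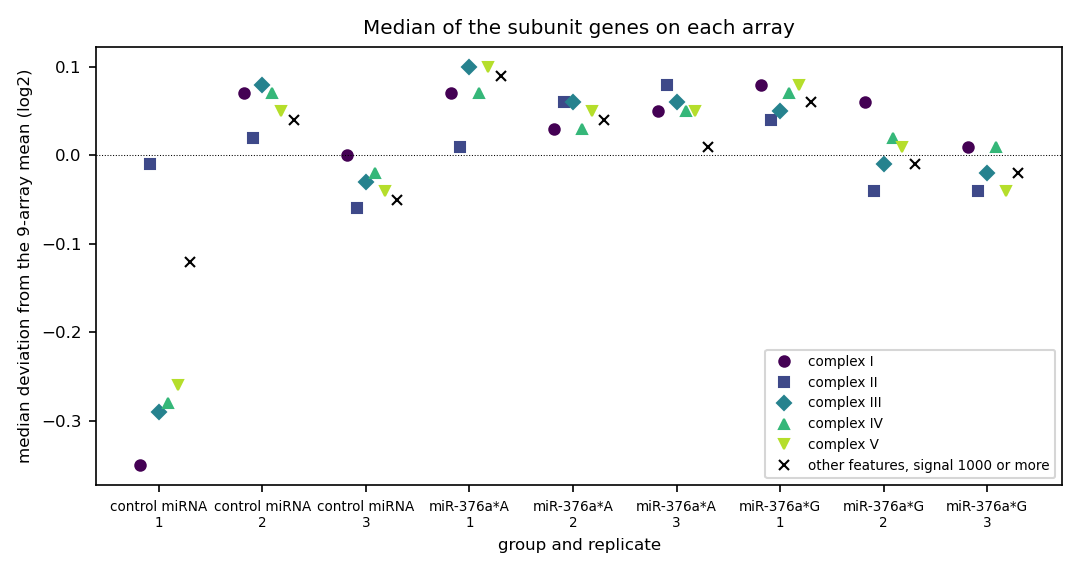
Median deviation of the subunit genes of each complex from their 9-array means (log2, vertical axis) on each array (horizontal axis, group and replicate), with crosses for 1211 other features of signal 1000 or more. On control replicate 1 complexes I, III, IV and V lie between -0.35 and -0.26, while complex II, a median of only 3 genes, lies at -0.01.

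Over all 9 arrays, SDHD was the only subunit gene called lower with miR-376a*G. Another 5 rose by small amounts: SDHC and the complex I genes NDUFA10, NDUFA9, NDUFB8 and NDUFV1. These 6 calls are 8.22% of the 73 coding genes, against 24.9% of all features (11.8% higher, 13.1% lower). Without control replicate 1, 4 were called higher and 3 lower with miR-376a*G (9.59%, against 26.5% of all features). The 3 were SDHD, 1 accessory gene of complex I and 1 gene of complex V. With miR-376a*A, 5 of 73 were called (6.85%, against 20.8% of all features, 10.8% higher and 10.0% lower). NDUFA9, COX7A2 and ATP5MK rose, and NDUFS1 and COX4I2 fell. Between the forms, SDHD alone was called, higher with miR-376a*A, 1 of 73 (1.37%, against 18.3% of all features, 10.4% higher and 7.9% lower). With all 9 arrays the shares called were below the background in all 3 comparisons. Against the control this turned without control replicate 2, when 45.2% of the genes were called with miR-376a*A (all features 23.4%) and 34.2% with miR-376a*G (all features 27.0%). In the fit of all arrays the subunit genes had a median SE of 0.088, against 0.101 for all features. The comparisons with the control share its 3 arrays.

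**Figure D2:**
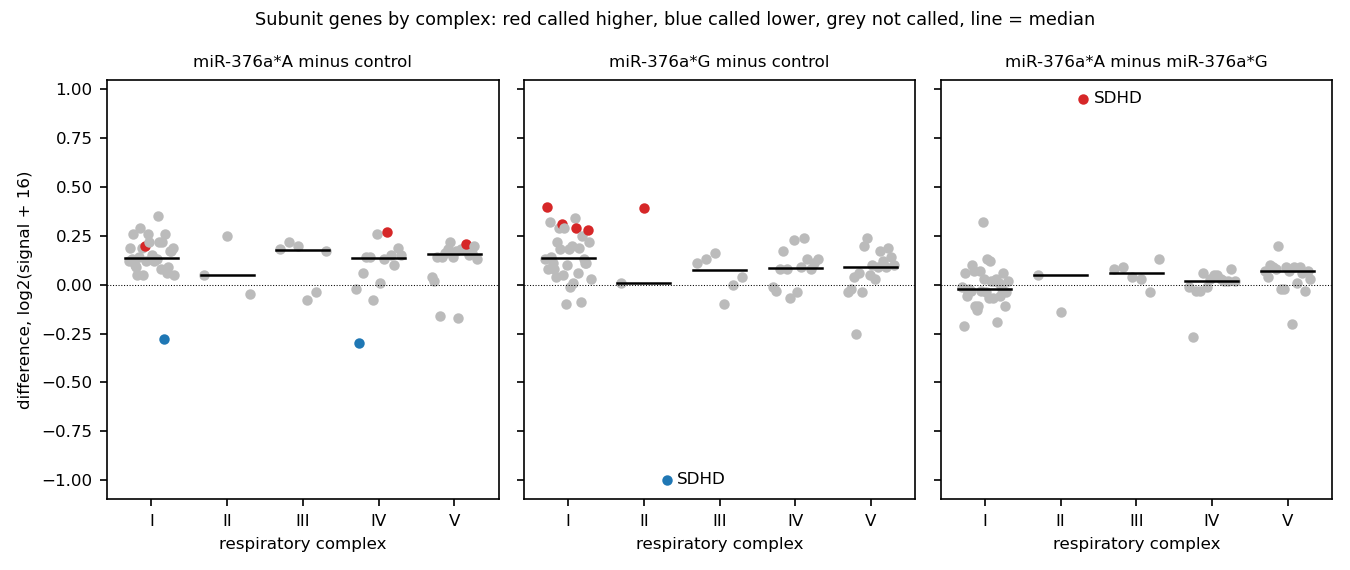
Difference of each of the 73 coding subunit genes (points, log2 of signal + 16, vertical axis) by complex (horizontal axis), in 3 panels for the 3 comparisons, with called genes in colour and the median of each complex as a line. SDHD lies at -1.0 with miR-376a*G against control and at 0.95 between the forms, and the other genes lie between -0.30 and 0.40.

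SDHD encodes the small membrane anchor of succinate dehydrogenase that, with SDHC, holds the ubiquinone site. Its signal was 667, 665 and 786 in the 3 control arrays, 674, 639 and 733 with miR-376a*A, and 334, 351 and 347 with miR-376a*G. The 3 miR-376a*G arrays lay below all 6 others and close to one another, and the other groups overlapped. The means were 706.0 ± 69.1 (SD, n = 3) in control, 682.1 ± 47.4 after miR-376a*A and 344.0 ± 8.93 after miR-376a*G. With miR-376a*G the signal fell 2.00-fold, a log2 difference of -1.0 ± 0.078 (SE, 95% interval -1.17 to -0.83, limma adjusted p = 1.82e-06). Between the forms it was 1.94-fold higher with miR-376a*A, at 0.95 ± 0.078 (95% interval 0.78 to 1.12, adjusted p = 3.01e-06). With miR-376a*A the difference from control was -0.05 ± 0.078 and did not pass (95% interval -0.22 to 0.12, adjusted p = 0.718). The fall with miR-376a*G stayed called when any 1 of the 9 arrays was left out (adjusted p 2.19e-06 to 3.15e-05), and leaving out control replicate 1 gave -1.04. A second SDHD probe set had signals of only 2.93 to 12.9 and was below the filter, so the result rests on 1 probe set.

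SDHC encodes the other membrane anchor. Its signal was 600, 736 and 776 in control, 810, 847 and 849 with miR-376a*A, and 893, 953 and 923 with miR-376a*G. All miR-376a*G arrays lay above the other 6, and the miR-376a*A arrays lay between them and the control. It rose with miR-376a*G by 0.39 ± 0.084 (SE, limma adjusted p = 0.0047), 1.31-fold, and this call held without any 1 of the 9 arrays (0.28 without control replicate 1). With miR-376a*A the difference was 0.25 ± 0.084 and narrowly did not pass (adjusted p = 0.0539). SDHC has 7 probe sets. Of the 3 others of like brightness, a pair also rose with miR-376a*G (0.36 and 0.31) and the other stood at 0.28 without passing (adjusted p = 0.0642). The 3 dim ones tested gave -0.10 to 0.21 and were not called. The representing probe set is of the x_at class, whose probes can match related sequences, so signal from SDHC-like transcripts was not told apart. SDHA, the flavoprotein that oxidises succinate, had 476.5 ± 14.1 in control, 494.4 ± 16.4 with miR-376a*A and 478.7 ± 16.6 with miR-376a*G (SD, n = 3), and its groups overlapped. Its differences were 0.05 ± 0.062 and 0.01 ± 0.062, and the interval with miR-376a*G, -0.13 to 0.14, leaves out a fall of the size of that in SDHD. SDHB, the iron-sulphur subunit, was not analysed here. The 3 measured genes of complex II thus differed in direction with miR-376a*G: SDHD fell, SDHC rose and SDHA was not called.

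**Figure D3:**
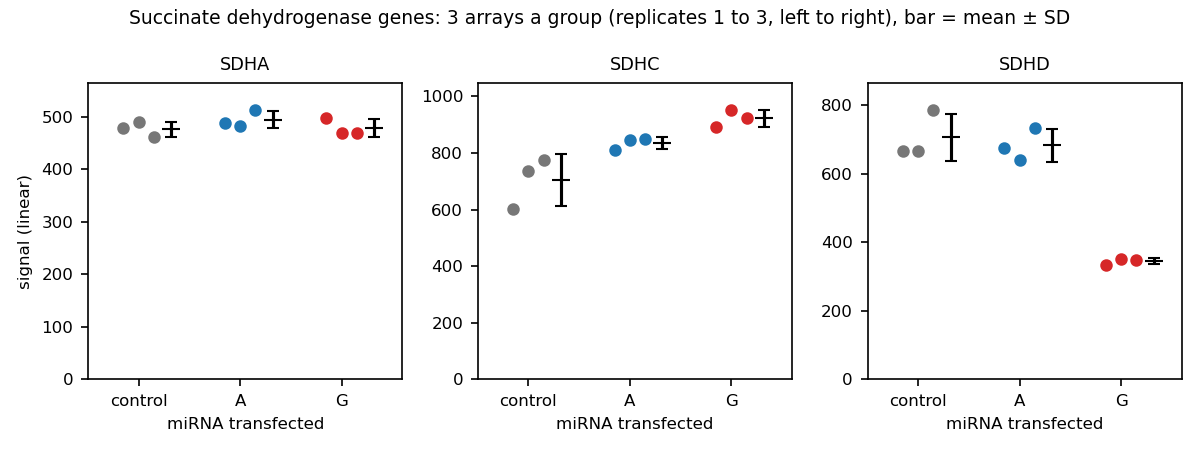
Linear probe-set signal (vertical axis, from 0) of SDHA, SDHC and SDHD on the 3 arrays of each group (points, replicates 1 to 3 from left to right), with bars for mean ± SD. The miR-376a*G arrays lie at 334 to 351 for SDHD, below the other 6, and at 893 to 953 for SDHC, above the other 6.

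SDHD lies on chromosome 11 between the coding genes TIMM8B and IL18 in the RefSeq annotation. TIMM8B, which encodes a chaperone of the mitochondrial intermembrane space, was chosen after its values were seen, as the gene next to the SDHD promoter. Its brighter probe set had 459, 774 and 708 in control, 749, 754 and 813 with miR-376a*A, and 837, 898 and 620 with miR-376a*G. The 3 groups overlapped, control replicate 1 was the lowest array, and neither difference was called. Its dim probe set rose with both forms, from 59.89 ± 13.8 in control to 100.2 ± 6.24 with miR-376a*A and 117.0 ± 3.13 with miR-376a*G (SD, n = 3). TIMM8B thus showed no fall beside that of SDHD.

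Complex I, the entry point for electrons from NADH, holds 32 of the 73 tested genes and 4 of the 5 rises with miR-376a*G. These 4 are 12.5% of its genes, close to the 11.8% of all features called higher. No complex I gene fell by limma (0 also lower at an unadjusted p under 0.05), and without control replicate 1 3 were called higher and 1 lower. Its median was 0.13, against -0.00 for all features, and without control replicate 1 it was 0.00. NDUFA10, an accessory subunit of the membrane-arm junction, had 487, 566 and 565 in control, 584, 613 and 647 with miR-376a*A, and 720, 711 and 705 with miR-376a*G. The groups did not overlap, and miR-376a*G was the highest. The rise with miR-376a*G was 0.40 ± 0.072 (SE, limma adjusted p = 0.00151), or 1.32-fold, and with miR-376a*A the difference was 0.19 ± 0.072 (adjusted p = 0.0866). The call held without any 1 of the 9 arrays (0.33 without control replicate 1), but not for the mean of the tested NDUFA10 probe sets (adjusted p = 0.143), since dim ones gave -0.06 and 0.12. NDUFA9, an accessory subunit near the ubiquinone site, had 743, 840 and 818 in control, 929, 906 and 936 with miR-376a*A, and 968, 1026 and 1002 with miR-376a*G. Its groups did not overlap either, in the same order. It rose by 0.31 ± 0.062 with miR-376a*G (adjusted p = 0.00266) and by 0.20 ± 0.062 with miR-376a*A (adjusted p = 0.035). The first call held without any 1 of the 9 arrays. The rises were 0.26 and 0.15 without control replicate 1. The second was lost when any miR-376a*A array was left out, and also without replicate 2 or 3 of miR-376a*G or control replicate 3 (adjusted p up to 0.113).

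NDUFV1 and NDUFB8 gave the other complex I rises with miR-376a*G, and both were less firm. NDUFV1, the flavoprotein that takes electrons from NADH, had 748, 902 and 741 in control and 974, 980 and 953 with miR-376a*G. The control values were spread, and the miR-376a*G values lay above all of them. Its rise of 0.28 ± 0.074 (SE, limma adjusted p = 0.0141) ended without miR-376a*G replicate 2 (adjusted p = 0.0553) or control replicate 3 (0.0595), and was 0.24 without control replicate 1. NDUFB8, an accessory subunit of the distal membrane arm, had 991, 1279 and 1270 in control and 1472, 1433 and 1396 with miR-376a*G. Control replicate 1 was far below the others, and the miR-376a*G arrays lay above all the control arrays. The miR-376a*A arrays (1454, 1397 and 1260) overlapped both groups. The rise of 0.29 ± 0.092 (adjusted p = 0.0373) became 0.17 without control replicate 1 (adjusted p = 0.0583), and it also ended without miR-376a*A replicate 2 or any miR-376a*G array (adjusted p up to 0.108). A second NDUFB8 probe set of like brightness gave 0.07 and was not called, so the probe sets of this gene differ.

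NDUFS1, the large iron-sulphur subunit that receives electrons from NDUFV1, was the complex I gene that fell. Its signal was 477, 523 and 457 in control, 368, 411 and 408 with miR-376a*A, and 438, 458 and 467 with miR-376a*G. The miR-376a*A arrays lay below the other 6, which overlapped. The fall with miR-376a*A was 0.28 on the log2 scale (-0.28 ± 0.073, limma adjusted p = 0.0151), or 1.22-fold, and with miR-376a*G the difference was -0.09 ± 0.073 (adjusted p = 0.408). The difference between the forms, -0.19 ± 0.073, did not pass (adjusted p = 0.0869). The fall was -0.30 without control replicate 1. It ended without miR-376a*A replicate 1 (adjusted p = 0.0718), and its dimmer probe sets, at -0.28 to 0.19, were not called. Of the 27 accessory genes of complex I, all 27 had a difference above 0 with miR-376a*A (all features 57.3%), from 0.05 to 0.35. NDUFA9 alone of them was called. Without control replicate 1 a difference above 0 was found for 14 of the 27, with differences from -0.10 to 0.19. NDUFB7, an accessory subunit of the intermembrane-space side, had the largest of these differences, 0.35 ± 0.123 with miR-376a*A and 0.34 ± 0.123 with miR-376a*G, and did not pass (adjusted p = 0.0595 and 0.0636). It was chosen after its values were seen. NDUFB2, the brightest gene of complex I, had 1931 ± 276 in control, 2102 ± 60.3 with miR-376a*A and 2055 ± 81.2 with miR-376a*G (SD, n = 3) and was not called.

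None of the 6 genes of complex III, which carries electrons from ubiquinol to cytochrome c, was called by limma in any comparison. The shares of all features called were 20.8% with miR-376a*A, 24.9% with miR-376a*G and 18.3% between the forms. At an unadjusted p under 0.05, for which no all-feature share is given, 2 of the 6 genes were higher with miR-376a*A and 0 in either other comparison. Their medians were 0.18 with miR-376a*A and 0.07 with miR-376a*G, and 0.06 and -0.04 without control replicate 1. The small subunits UQCR10, UQCR11, UQCRB and UQCRQ stood at 0.17 to 0.22 with miR-376a*A, while the large core proteins UQCRC1 and UQCRC2 stood at -0.08 and -0.04. This split was made after the values were seen. Without control replicate 1 the 6 genes lay between -0.12 and 0.10 with miR-376a*A. UQCR10, the brightest of them, had 1826, 2428 and 2203 in control, 2515, 2412 and 2365 with miR-376a*A, and 2400, 2269 and 2237 with miR-376a*G. Control replicate 1 was the lowest of the 9 arrays, and the groups overlapped.

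In complex IV, 14 of the 17 genes were tested, and the calls were those of COX7A2 and COX4I2 with miR-376a*A. These 2 are 14.3%, against 20.8% of all features, and 0 were called with miR-376a*G, against 24.9%. Without control replicate 1, 1 was called with miR-376a*A (7.14%, against 22.6% of all features) and 0 with miR-376a*G (against 26.5%). COX7A2, the broadly expressed form of a small subunit, had 1163, 1498 and 1528 in control, 1659, 1692 and 1674 with miR-376a*A, and 1662, 1654 and 1595 with miR-376a*G. The miR-376a* arrays lay above all the control arrays and overlapped each other. It rose by 0.27 ± 0.087 with miR-376a*A (SE, limma adjusted p = 0.0438) and stood at 0.24 ± 0.087 with miR-376a*G (adjusted p = 0.0646). The call was lost when any 1 of the 6 miR-376a* arrays was left out, with adjusted p from 0.0604 to 0.12. It was called at 0.15 without control replicate 1 (adjusted p = 0.0291). COX4I2, the isoform of subunit 4 that is known to be induced by low oxygen, was dim, at 36.8, 30.1 and 32.9 in control, 24.2, 22.6 and 24.6 with miR-376a*A, and 30.3, 29.5 and 36.7 with miR-376a*G. The miR-376a*A arrays were the 3 lowest. The fall with miR-376a*A was -0.30 ± 0.096 (adjusted p = 0.0408), and it ended in 7 of the 9 fits that left out an array, among them those without control replicate 1 or 3 or any miR-376a*A array (adjusted p up to 0.121). The value was -0.25 without control replicate 1 (adjusted p = 0.106). COX4I1, the usual isoform of the same subunit, had 1762 ± 227 in control, 1729 ± 37.5 with miR-376a*A and 1743 ± 108 with miR-376a*G (SD, n = 3), and its differences were -0.02 and -0.01.

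The remaining complex IV genes named by the rule were not called. COX6A1, the broadly expressed isoform of subunit 6A, stood at 0.14 ± 0.091 and 0.08 ± 0.091 with the A and G forms. COX7A2L, which links complexes III and IV into supercomplexes, stood at 0.15 ± 0.064 and 0.13 ± 0.064 (SE), and its arrays with either form lay above those of the control. COX7C, the brightest gene of the complex, stood at 0.19 ± 0.08 and 0.11 ± 0.08. COX7A1, the muscle isoform, had signals of 0.897 to 1.98 on the 9 arrays and was not tested. COXFA4, formerly named NDUFA4 and now counted as a complex IV subunit, is outside the symbol rule and stood at 0.22 and 0.19 without passing.

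Complex V, the ATP synthase, had 1 call among 18 genes, with miR-376a*A (5.56%, against 20.8% of all features). With miR-376a*G 0 were called, against 24.9% of all features. Without control replicate 1, 0 were called with miR-376a*A (all features 22.6%). With miR-376a*G 1 gene, of the F1 head, was then called lower (5.56%, against 26.5% of all features). ATP5MK, a small subunit of the membrane part, had 1671, 2003 and 1914 in control, 2227, 2119 and 2104 with miR-376a*A, and 2122, 1967 and 1975 with miR-376a*G. The miR-376a*A arrays lay above the control arrays, and the miR-376a*G arrays overlapped both. The rise of 0.21 ± 0.069 with miR-376a*A (SE, limma adjusted p = 0.0496) was close to the threshold and ended in 8 of the 9 fits that left out an array, that without control replicate 2 being the exception. Leaving out control replicate 1 gave 0.13 (adjusted p = 0.0809). The 5 genes of the F1 head, where ATP is made, had a median of 0.04 with miR-376a*A and -0.02 with miR-376a*G, and the 12 genes of the membrane part and stalk had 0.17 and 0.11. Without control replicate 1 these medians were 0.03 and -0.05 for the head and 0.07 and 0.04 for the membrane part and stalk. ATP5F1A, the alpha subunit of the head and the brightest gene of complex V, had 2222 ± 88.0, 2284 ± 154 and 2166 ± 71.7 (SD, n = 3) in control and with the A and G forms. ATP5IF1, the inhibitor of the enzyme's reverse reaction, varied widely within groups, from 879 to 1387 in control and 1080 to 1484 with miR-376a*A, and stood at 0.16 ± 0.147 and -0.04 ± 0.147. ATP5MF was represented by a dim probe set of 8.21 to 21.4. A bright one shared with another symbol was left out by the rule and stood at 0.12 and -0.03 without passing.

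**Figure D4:**
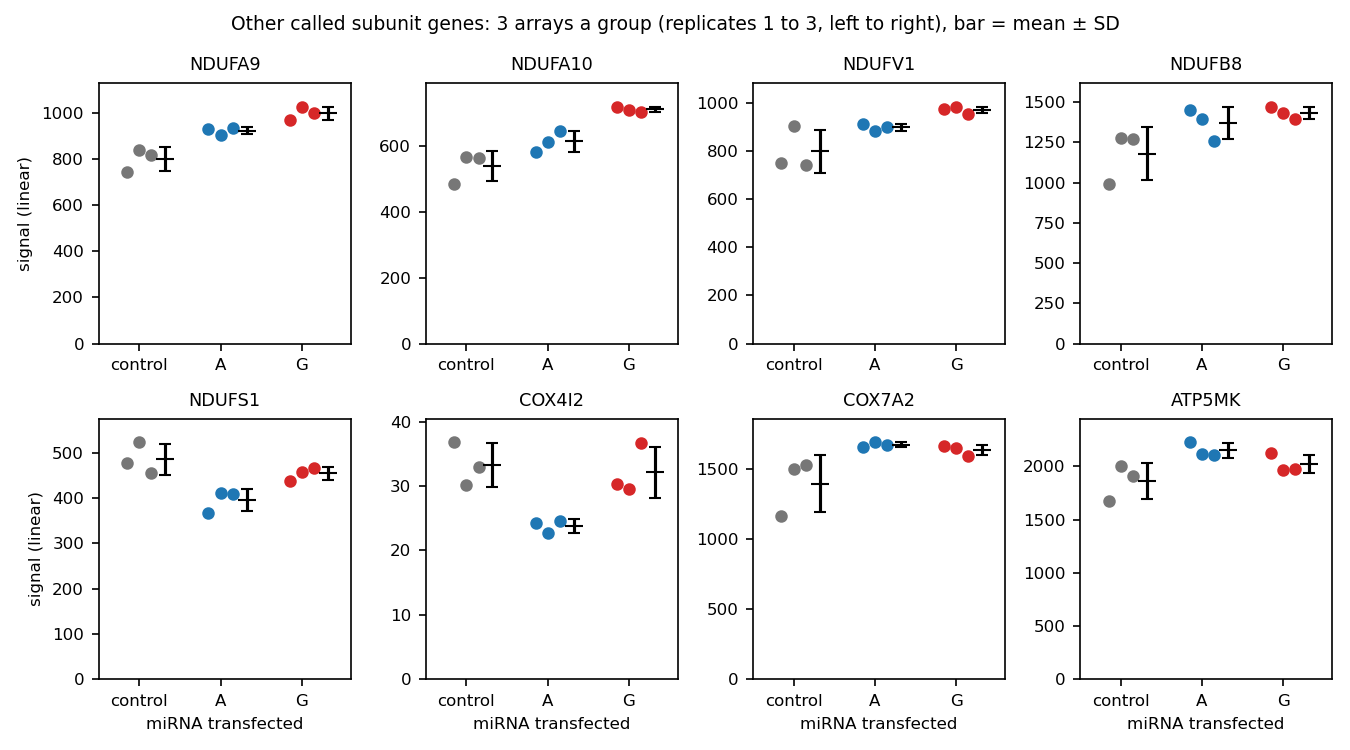
Linear probe-set signal (vertical axis, from 0) of the other 8 called coding genes on the 3 arrays of each group (points, replicates 1 to 3 from left to right), with bars for mean ± SD. For NDUFA10 and NDUFA9 the arrays lie lowest in control and highest with miR-376a*G, and control replicate 1 is the lowest of 9 arrays for NDUFA9, NDUFA10, NDUFB8, COX7A2 and ATP5MK.

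Beyond the called genes, most differences from the control were small and above 0. With miR-376a*A, 64 of the 73 coding genes had a difference above 0, where 57.3% of all features did. The median of the 73 was 0.14, against 0.04 for all features. With miR-376a*G the count was 60 (all features 49.3%), with a median of 0.11 against -0.00. Between the forms it was 44 (all features 57.1%), with a median of 0.02 against 0.03. Without control replicate 1 the medians against control were 0.04 and 0.00, and the counts above 0 were 46 and 37. In that fit 3 genes (4.11%) were called with miR-376a*A, 2 higher and 1 lower (all features 22.6%, 12.0% higher and 10.6% lower). With miR-376a*G 7 (9.59%) were called, 4 higher and 3 lower (all features 26.5%, 13.1% higher and 13.4% lower), and between the forms 6 (8.22%), 2 higher and 4 lower (all features 26.2%, 14.1% higher and 12.0% lower). Without control replicate 2 the medians were 0.22 and 0.19. With miR-376a*A 33 genes were then called, 31 higher and 2 lower (all features 23.4%, 12.5% higher and 10.9% lower), and with miR-376a*G 25, 24 higher and 1 lower (all features 27.0%, 13.3% higher and 13.7% lower). Between the forms 3 (4.11%) were called, 2 higher and 1 lower (all features 21.0%, 11.9% higher and 9.08% lower). The counts of calls against the control thus changed by over 1.5 times with the choice of control arrays. The bright features outside the list had medians of 0.10 and 0.05 with the A and G forms, and 0.06 and 0.00 without control replicate 1.

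Arrays that did not overlap between groups were counted for the coding genes and for all features. With miR-376a*A, 16 coding genes (21.9%) lay wholly above and 2 (2.74%) wholly below the control, against 20.7% and 15.9% of all features (36.7% in either direction). With miR-376a*G, 16 (21.9%) lay above and 1 (1.37%) below, against 18.6% and 19.7% (38.3% in either direction). The downward shares moved with control replicate 1. Without it 16 genes lay above and 12 below with miR-376a*A (38.4% in all, against 48.2% of all features, 26.9% above and 21.3% below). With miR-376a*G 16 then lay above and 8 below (32.9% in all, against 50.2%, 24.6% above and 25.6% below). Between the forms, 7 (9.59%) were higher and 11 (15.1%) lower with miR-376a*A, against 23.4% and 18.8% (42.2% in either direction). Of these 11, 8 were complex I genes, which is 25.0% of its 32 genes, against the 18.8% of all features. In that comparison 0 complex I genes were called. Of the non-coding members, ATP5MC2P1, a pseudogene related to ATP5MC2, rose by 0.34 ± 0.11 with miR-376a*G (SE, limma adjusted p = 0.038). Its signal was 45.2 to 62.2 in control and 65.8 to 85.6 with miR-376a*G, and the call ended without control replicate 1 (adjusted p = 0.106) or 5 other arrays. NDUFB2-AS1, NDUFV1-DT and NDUFV2-AS1 were not called, and COX6A1P1 was below the filter.

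Probe sets that did not represent a gene were read as well. Of 66 such tested probe sets of coding genes, 5 were called with miR-376a*A (3 higher, 2 lower), 9 with miR-376a*G (7 higher, 2 lower) and 1 between the forms (higher with miR-376a*A). These are 7.58%, 13.6% and 1.52%. Of all 32768 probe sets past the filter 21.3% (10.3% higher, 11.1% lower), 25.8% (11.5% and 14.3%) and 18.1% (10.2% and 7.95%) were called, so the members' shares lay below the background. NDUFC1, an accessory subunit of complex I, had a dim probe set that rose with both forms (0.42 and 0.54), while its bright one stood at 0.22 and 0.19 without passing. NDUFA7, likewise an accessory subunit, had a dim probe set that rose by 0.60 and 0.62, and its bright one stood at 0.19 and 0.29 without passing. Dim probe sets of COX5B and NDUFB1 fell with miR-376a*G (-0.50 and -0.41), and a dim one of UQCRB fell with miR-376a*A (-0.55), where the bright probe sets of these genes were not called. These probe sets were chosen after their values were seen.

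Genes that build or feed the complexes were taken from 9 lists of 113 symbols, of which 111 were tested: assembly factors, electron carriers, tricarboxylic acid cycle and pyruvate genes, nuclear regulators of mitochondrial biogenesis, and a pair of subunits outside the symbol rule. With miR-376a*A 7 rose and 12 fell (17.1%, against 20.8% of all features). With miR-376a*G 20 rose and 11 fell (27.9%, against 24.9%), and between the forms 8 were higher and 19 lower with miR-376a*A (24.3%, against 18.3%). Of these 19, 31 and 27 calls, 5, 17 and 13 held without any 1 of the 9 arrays, for which no all-feature share is given. The medians were 0.05, 0.11 and -0.08. Without control replicate 1, 8 rose and 17 fell with miR-376a*A (22.5%, against 22.6% of all features), and 19 rose and 15 fell with miR-376a*G (30.6%, against 26.5%), with medians of -0.02 and 0.03. Of the 19 and 31 genes called against the control over all arrays, 16 and 27 were also called then. The lost calls were those of COQ7, DMAC1 and GABPA with miR-376a*A and of COA8, COQ7, COX10 and PET117 with miR-376a*G. The value moved by over 1.5 times for COA4 (0.60 to 0.39), COA8 (0.35 to 0.18), FMC1 (0.35 to 0.18), PET100 (0.39 to 0.21), PET117 (0.29 to 0.19) and UQCC3 (0.42 to 0.25) with miR-376a*G, and for DMAC1 (0.33 to 0.20), HIGD1A (0.22 to 0.14) and TIMMDC1 (0.22 to 0.14) with miR-376a*A. Some of these genes were chosen for these changes after their values were seen.

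**Figure D5:**
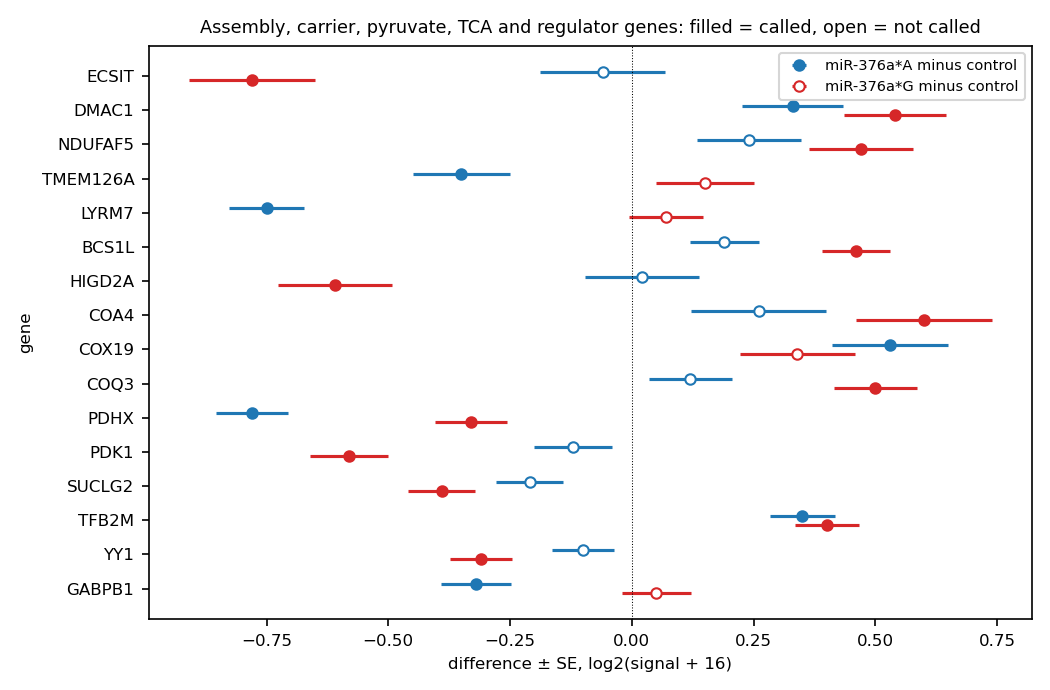
Difference from control (log2 of signal + 16, horizontal axis, bars for SE) of 16 assembly, carrier, pyruvate, cycle and regulator genes (vertical axis), with miR-376a*A in blue and miR-376a*G in red and called differences filled. ECSIT, HIGD2A and PDK1 are called lower with miR-376a*G, LYRM7 with miR-376a*A, and PDHX with both.

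Among 19 assembly factors of complex I, 2 rose and 3 fell with miR-376a*A, and 5 rose and 2 fell with miR-376a*G. These are 26.3% and 36.8%, against 20.8% and 24.9% of all features, and without control replicate 1 they were 31.6% and 42.1%, against 22.6% and 26.5%. ECSIT, which acts in the assembly of the membrane arm, had 203, 221 and 229 in control, 205, 199 and 219 with miR-376a*A, and 137, 88.5 and 141 with miR-376a*G. The miR-376a*G arrays lay below the other 6, as for SDHD. It fell by 0.78 on the log2 scale with miR-376a*G (-0.78 ± 0.129, limma adjusted p = 0.000798), and it was 0.72 ± 0.129 higher with miR-376a*A than with miR-376a*G (adjusted p = 0.00188). DMAC1 and NDUFAF5, 2 further assembly factors, rose with miR-376a*G by 0.54 ± 0.104 and 0.47 ± 0.107, and TIMMDC1 and TMEM186 by 0.30 and 0.39. TMEM126A fell with miR-376a*A (-0.35 ± 0.1) and was 0.51 lower on the log2 scale with it than with miR-376a*G (-0.51, adjusted p = 0.00337). NDUFAF7, a methyltransferase acting on a core subunit, was 0.40 ± 0.062 higher with the A form than with the G form (adjusted p = 0.000588).

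Among 6 assembly factors of complex III, 0 rose and 1 fell with miR-376a*A, and 2 rose and 0 fell with miR-376a*G. These are 16.7% and 33.3%, against 20.8% and 24.9% of all features. Without control replicate 1 the shares were again 16.7% and 33.3%, against 22.6% and 26.5%. LYRM7, the chaperone that hands over the Rieske iron-sulphur protein, was the factor that fell with miR-376a*A. Its signal was 382, 414 and 428 in control, 245, 232 and 233 with miR-376a*A, and 394, 425 and 465 with miR-376a*G. The miR-376a*A arrays lay far below the other 6, which overlapped. The fall was -0.75 ± 0.076 (SE, limma adjusted p = 2.08e-05), and the difference between the forms was -0.81 ± 0.076 (adjusted p = 9.49e-06). Its other 3 tested probe sets also fell with miR-376a*A (log2 -0.44, -0.47 and -0.32). BCS1L, the ATPase that moves the same protein across the inner membrane, rose with miR-376a*G by 0.46 ± 0.07 (adjusted p = 0.000442) and stood at 0.19 with miR-376a*A.

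Among 26 assembly factors of complex IV, 2 rose and 2 fell with miR-376a*A, and 5 rose and 2 fell with miR-376a*G. These are 15.4% and 26.9%, against 20.8% and 24.9% of all features. Without control replicate 1 they were 26.9% and 23.1%, against 22.6% and 26.5%. HIGD2A, a factor of supercomplex and complex IV assembly, had 619, 936 and 822 in control. It had 859, 744 and 775 with miR-376a*A, and 511, 504 and 500 with miR-376a*G. The miR-376a*G arrays lay below the other 6. Its fall with miR-376a*G was -0.61 ± 0.117 (SE, limma adjusted p = 0.0021), and it was 0.63 ± 0.117 higher with the A form than with the G form (adjusted p = 0.00228). COA4 and COA7, assembly factors of the intermembrane space, rose with miR-376a*G by 0.60 ± 0.139 and 0.44 ± 0.096. COX19, which acts in copper supply to the enzyme, rose with miR-376a*A by 0.53 ± 0.119 (adjusted p = 0.00735) from a dim 29.56 ± 8.32 to 49.14 ± 0.969 (SD, n = 3). Of the 4 assembly factors of complex II limma called none, and 1 had an unadjusted p under 0.05, with miR-376a*A. Of the 5 of complex V, ATPAF1 and FMC1 rose with miR-376a*G (0.18 and 0.35), and each call ended without some arrays, among them control replicate 3 for ATPAF1.

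The carriers and the enzymes that supply electrons moved in both directions. Of 15 carrier genes, 1 rose and 2 fell with miR-376a*A, and 3 rose and 0 fell with miR-376a*G (20.0% each). Of 19 tricarboxylic acid cycle and pyruvate genes, 1 rose and 1 fell with miR-376a*A (10.5%), and 1 rose and 6 fell with miR-376a*G (36.8%). Of all features 20.8% and 24.9% were called. Without control replicate 1 the shares were 20.0% and 13.3% for carriers and 21.1% and 42.1% for the others, against 22.6% and 26.5%. COQ3 and COQ5, methyltransferases of ubiquinone synthesis, rose with miR-376a*G by 0.50 ± 0.085 and 0.31 ± 0.073 (SE), and both calls held without any 1 of the 9 arrays. CYCS, cytochrome c, stood at 0.16 and 0.14 with the forms A and G and was not called. PDHX, the subunit that binds the E3 enzyme in the pyruvate dehydrogenase complex, had 720, 593 and 634 in control, 361, 366 and 381 with miR-376a*A, and 502, 527 and 507 with miR-376a*G. The groups did not overlap, and the A form gave the lowest values. It fell with miR-376a*A (log2 -0.78 ± 0.074, limma adjusted p = 1.17e-05) and with miR-376a*G (-0.33 ± 0.074, adjusted p = 0.00617), and the difference between the forms was -0.46 ± 0.074 (adjusted p = 0.00092). PDK1, a kinase that inhibits the same complex, had 491, 411 and 399 in control, 394, 399 and 394 with miR-376a*A, and 288, 270 and 296 with miR-376a*G. It fell with miR-376a*G (-0.58 ± 0.08, adjusted p = 0.000226), with the miR-376a*G arrays below all others. SUCLG2, of the cycle enzyme that makes succinate from succinyl-CoA, the step before complex II, fell with miR-376a*G (-0.39 ± 0.069, adjusted p = 0.00131). Of its other probe sets, 2 also fell (-0.46 and -0.45). DLD rose with miR-376a*G (0.27 ± 0.06, limma adjusted p = 0.00569). This call held without any 1 of the 9 arrays, but not for the mean of its probe sets (adjusted p = 0.212). IDH2 rose with miR-376a*A (0.29 ± 0.074, limma adjusted p = 0.0145), and its call ended without some arrays.

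Of 15 nuclear regulators, 1 rose and 3 fell with miR-376a*A, and 2 rose and 1 fell with miR-376a*G. These are 26.7% and 20.0%, against 20.8% and 24.9% of all features, and without control replicate 1 they were 20.0% and 33.3%, against 22.6% and 26.5%. TFB2M, a transcription factor of mitochondrial DNA, rose with both forms, by 0.35 ± 0.066 and 0.40 ± 0.066 (SE, limma adjusted p = 0.0024 and 0.000816). TEFM, a mitochondrial elongation factor, rose with miR-376a*G by 0.39 ± 0.08. YY1 fell with miR-376a*G (-0.31 ± 0.064, adjusted p = 0.00329), and its other 5 tested probe sets also fell, from -0.64 to -0.42. GABPB1, a subunit of the ETS factor GABP, fell with miR-376a*A on its brightest probe set (-0.32 ± 0.071, adjusted p = 0.0068). Its other tested probe set stood at 0.29 with miR-376a*A and rose with miR-376a*G (0.31), so the probe sets of this gene go opposite ways. GABPA, the DNA-binding subunit, and TFAM, the packaging protein of mitochondrial DNA, fell with miR-376a*A (-0.39 ± 0.125 and -0.31 ± 0.091, adjusted p = 0.0423 and 0.0282), and each call ended without some arrays. NRF1, at 0.00 and 0.23 (log2) with the A and G forms, and the coactivator PPARGC1A, at -0.21 and -0.15, were not called. CYC1 and NDUFAB1, subunits of complexes III and I outside the symbol rule, stood between -0.06 and 0.11 against the control and were not called.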

How the data were processed

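The authors deposited linear probe-set signal intensities of 9 arrays, 1 value per probe set; per the submitters' processing notes the tool was GCOS 1.4.0.036, whose role is not given in the sources used here. The members and gene lists were chosen with earlier results of these data known. From 54675 probe sets, 62 controls were left out. Those with a mean log2(signal + 16) at or above the 40th percentile were kept (32768), with 1 probe set a gene, the one of highest mean, giving 20068 features. One model of the 3 group means over all 9 arrays was fitted by lmFit and eBayes (trend) of limma 3.58.1, R 4.3.3, with 6 residual degrees of freedom. Tests were two-sided, with Benjamini-Hochberg adjustment over all features. The test was tried on simulated data. Same-numbered arrays did not deviate together (9 pairs, r -0.11 to 0.071), so no block was used.

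Genes named are the called members, the brightest of each complex, a fixed list of isoforms, inhibitors and linkers, and of each pathway list up to 4 called genes of smallest p per comparison with 7 fixed ones; others are said to be chosen after their values were seen. Alternatives covered scaling, filter, offset, variance trend, probe set rule, groups fitted, array weights, a replicate block and each array left out; counts beside those without single control arrays were added after seeing the data. Number of arrays limits the precision. Tables came from pandas 2.3.3 and numpy 2.4.6 (Python 3.11.15) and plots from matplotlib 3.10.9.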

Additional observations from a re-analysis of the deposited data

Results flagged for a closer look

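SDHD differed between the forms by the test of that difference itself, at 0.95 ± 0.078 (log2 of signal + 16, higher with miR-376a*A, limma adjusted p = 3.01e-06). It was the only coding member for which that test passed, and all 3 miR-376a*A arrays lay above all 3 miR-376a*G arrays.

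Among 12 tested probe sets that name a subunit gene together with other symbols, and so were outside the symbol rule, 1 was called higher and 1 lower than the control with miR-376a*A, 1 higher with miR-376a*G, and 1 lower with miR-376a*A than with miR-376a*G. These shares, 16.7%, 8.33% and 8.33%, compare with 21.3%, 25.8% and 18.1% of all probe sets past the filter. A probe set of NDUFS8 with a pair of microRNA genes rose by 0.40 ± 0.087 with miR-376a*A (limma adjusted p = 0.0057), while 2 brighter NDUFS8 probe sets stood at 0.16 and 0.08 and were not called. A probe set of NDUFS3 with PTPMT1 rose by 0.41 ± 0.123 with miR-376a*G (adjusted p = 0.0276), while NDUFS3 itself stood at 0.25 and was not called. A probe set of PTCD1 and the read-through gene ATP5MF-PTCD1 fell with miR-376a*A (-0.47 ± 0.108, adjusted p = 0.00824) and was lower with it than with miR-376a*G (-0.47 ± 0.108, adjusted p = 0.00925).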

How the results depend on the processing

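The medians of the 73 coding genes were 0.14 with miR-376a*A, 0.11 with miR-376a*G and 0.02 between the forms. Leaving out each array gave medians of 0.04 to 0.22, 0.00 to 0.19 and 0.01 to 0.04. They moved by less than 0.12 (log2), the within-group SD of the array medians. That SD comes mainly from the control arrays (-0.32, 0.07 and -0.03), so it does not show that the medians are stable. Counts called moved more: from 0 to 33, from 4 to 25 and from 1 to 6. The highest counts against control came without control replicate 2, and the 0 without miR-376a*A replicate 1. For members called, miR-376a*A minus control, the main count of 5 became 2 with each array centred on its median, 3 with quantile normalization, 1 without a filter, 2 without the variance trend, 1 with only the groups compared, 28 with array weights and 2 with the replicate block. For members called, miR-376a*G minus control, the 6 became 11 with median centring, 10 with a 60th percentile filter and 19 with array weights. For members called, miR-376a*A minus miR-376a*G, the 1 became 4 with median centring, 2 with quantile normalization, the 60th percentile filter, no trend or the mean of probe sets, 6 with only the groups compared and 8 with array weights. The cause was not tested. Array weights favoured control replicate 3 (8.16, against 0.189 for control replicate 1). The replicate block, with r of -0.11 to 0.071 for the pairing, changed the other counts by under 1.5 times. SDHD with miR-376a*G and between the forms was called under every alternative run. Of values of named members under alternatives, 1085 kept their side of the threshold, 74 lost the call, 38 gained it and 0 reversed.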
